A study of Mus musculus with 61 samples.

Results

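Osr1, Lhx1, Pax2, Pax8, Gata3 and Wt1 are transcription factor genes that mark the intermediate mesoderm of the mouse embryo. They were chosen by name, and these 6 genes are among the 55052 genes of the deposited expression tables. All 6 were found, each as a single row. The intermediate mesoderm is the strip between the paraxial mesoderm, which makes the somites, and the lateral plate, and it gives rise to the kidneys, their ducts and part of the gonads. Osr1 and Lhx1 act early in this lineage, Pax2 and Pax8 together commit cells to it, Gata3 acts below them in the nephric duct, and Wt1 marks the coelomic epithelium, the kidney mesenchyme and later the podocytes. None of these genes is restricted to the kidney lineage: Lhx1 is also a gene of the node and anterior mesendoderm and of interneurons, Osr1 and Wt1 are used in lateral plate derivatives, and Pax2, Pax8 and Gata3 are used in spinal interneurons.

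The data were RNA-seq libraries of stembryos, made by letting mouse embryonic stem cells aggregate and giving the aggregates, which then grow out like a trunk, a pulse of the Wnt agonist Chiron. There were 61 libraries in 28 conditions. Wild-type stembryos were followed at 8 stages, with 2 libraries each at 72, 84, 96, 108, 120, 132, 144 and 168 h after aggregation, which is called the time course here. Further wild-type libraries, 4 at 96 h, 4 at 120 h and 2 at 144 h, served as controls for 8 mutant genotypes of the HoxD cluster in 17 conditions. All groups received the same Chiron pulse, many stembryos were pooled for a library, and from 108 h on only elongating ones were taken. The wild-type cells were EmbryoMax 129/SVEV cells, and so were the parents of Del(CBS1), Del(CBS2), Del(CBS4) and Del(CBS1-2), which lack CTCF binding sites within the cluster, of Del(d1-d4), which lacks the region from Hoxd1 to Hoxd4, and of Ins(2xCBS-d4d8), which carries a cassette with additional CTCF sites between Hoxd4 and Hoxd8. Del(CBS1-2) was made in Del(CBS1) cells, and these edited lines were homozygous clones. Del(CBS1-5), which lacks all the CTCF sites of that series, and Del(sub-TAD1), which lacks a regulatory domain beside the cluster, were derived from blastocysts of mutant mice on another genetic background, without wild-type lines of that background, so that deletion and line origin cannot be told apart. Del(sub-TAD1) also removes Mtx2 and carries a fosmid transgene to replace it. The replicates were biological ones, each a pool of stembryos, per the study's reporting summary. The labels do not say which libraries came from separate cultures, and p-values measure the spread between these libraries only.

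The libraries fell into 2 sets by the summed level of processed pseudogenes, which was between 92034 and 106947 FPKM in 28 libraries and between 4653.9 and 8331.5 FPKM in the other 33. The time course lay in the second set. Of the wild-type controls at 96 h and 120 h, replicates 1 to 3 were in the first set and replicate 4 in the second, and each mutant condition lay wholly in a single set. FPKM counts the fragments that fall on each kilobase of a transcript, relative to all mapped fragments. The inferred depth was between 15020000 and 38830000 fragments a library, at which 3 fragments of a member amount to at most 0.108 FPKM. Results of the mutants are given also against wild type of their own library set where that ends or adds a call. For mutants of the second set these controls include the time course of the stage.

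The genes lie at 6 separate places in mm10. Osr1 (ENSMUSG00000048387) spans chr12:9570116-9581500 on the plus strand, Lhx1 (ENSMUSG00000018698) chr11:84518284-84525535 on the minus strand and Pax2 (ENSMUSG00000004231) chr19:44756045-44837871 on the plus strand. Gata3 (ENSMUSG00000015619) spans chr2:9857078-9890034 and Pax8 (ENSMUSG00000026976) chr2:24420560-24475599, both on the minus strand, and Wt1 (ENSMUSG00000016458) spans chr2:105126529-105173616 on the plus strand. The last 3 share chromosome 2 with the HoxD cluster. Transcripts annotated within Osr1, Pax2, Pax8 and Gata3 reached at most 0.312 FPKM. Cufflinks ran on its default settings, which treat a library as unstranded, so that reads of overlapping genes on opposite strands may not be told apart.

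Lhx1 is shown by sequence because a second gene starts beside it and moved with it. The noncoding gene Lhx1os (chr11:84525660-84535831, plus strand) starts 125 bp from the Lhx1 start and points away from it. The 249 bases before Lhx1 are printed 5′ to 3′ on the minus strand, chr11:84525536-84525784 in GRCm38.p6 (RefSeq), with the 124 bases between both starts in capitals and the first bases of Lhx1os in lower case.
Lhx1 upstream: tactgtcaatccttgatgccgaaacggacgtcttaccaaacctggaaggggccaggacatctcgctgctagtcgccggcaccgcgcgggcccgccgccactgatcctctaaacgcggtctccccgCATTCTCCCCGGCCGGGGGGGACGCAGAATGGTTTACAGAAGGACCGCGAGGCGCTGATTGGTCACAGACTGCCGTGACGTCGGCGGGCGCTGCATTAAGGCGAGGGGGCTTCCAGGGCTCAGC
Of these bases, 64.7% are G or C. Promoter windows of 300 bases were at hand for Lhx1, Gata3 and Pax8 (1 each) and Pax2 (3), and were searched on both strands for the core letters of 4 kinds of sites. The GATA core AGATAA was in none of these windows, and in 11.2% of all 32851 promoter windows. The core of TCF/LEF sites, written CTTTGA, was also in none, and in 16% of all windows. The core of retinoic acid receptor sites, written AGGTCA, was again in none, and in 16.3% of all windows. The CDX core, written TTTATG, was in 1 of the 3 Pax2 windows, and in 11.9% of all windows.

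The first question was when each gene is used in wild-type stembryos. The 6 genes did not come on together. Lhx1 was high from the first stage and low by 132 h, Osr1 peaked at 96 h, Pax2 was high at 96 h and again at 168 h, Wt1 was lowest at 96 h and highest at 132 h, Gata3 was highest at 144 h and 168 h, and Pax8 stayed low throughout. With the onset set where both libraries of a stage first came to 1 FPKM, Lhx1 was on at 72 h, Osr1 and Pax2 at 96 h and Wt1 at 108 h, while Gata3 and Pax8 had no such stage. All 5 genes that passed the filter on low values (a mean of at least 1 FPKM in a condition) changed over the time course by limma's F-test, with adjusted p between 1.05e-13 for Lhx1 and 4.06e-08 for Osr1. This test called 61.8% of the 17098 genes tested. Of 35 tests of consecutive stages on these members, 14 were called, where 10.2% of such tests were called over all genes. A call is an adjusted p under 0.05 from limma over all genes of a comparison, and changes are on the log2(FPKM + 0.1) scale, which understates changes of low genes.

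**Figure D1:**
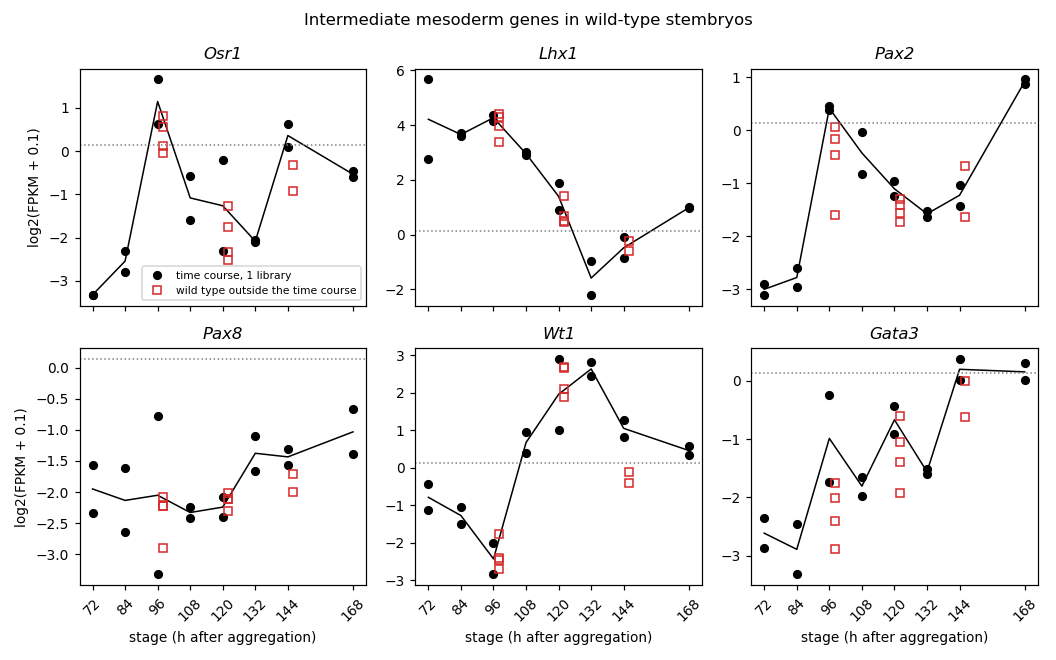
Level of each gene, as log2(FPKM + 0.1), against stage in hours, 1 panel a gene. Black points are the 2 libraries of a stage of the time course, the line joins their means, red squares are wild-type libraries outside the time course, shifted by 2 h for sight, and the dotted line marks 1 FPKM. The peaks fall at different stages, and the 2 libraries part widely for Lhx1 at 72 h (50.9 and 6.65 FPKM).

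Osr1 encodes a zinc finger factor and is among the earliest genes of intermediate and lateral plate mesoderm. It was listed at 0 in both libraries at 72 h and stood at 0.103 and 0.045 FPKM at 84 h. At 96 h it was 1.45 and 3.06 FPKM, at 108 h 0.234 and 0.57, and at 120 h 0.762 and 0.102. At 132 h it was 0.133 and 0.14 FPKM, at 144 h 0.972 and 1.44, and at 168 h 0.623 and 0.56. Both libraries of 96 h and both of 144 h thus lay above all libraries of the stages beside them. The rise from 84 h to 96 h was 3.69 ± 0.54 (SE) on the log2 scale (adjusted p = 2.71e-06). The change to 108 h was -2.23 ± 0.54 (adjusted p = 0.00588), and that from 132 h to 144 h was 2.44 ± 0.54 (adjusted p = 0.0049). These last 2 were no longer called without time course replicate 2 (-2.22, adjusted p = 0.0956, and 2.2, adjusted p = 0.126).

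The 13 genes listed for lateral plate and coelomic epithelium, such as Foxf1, Gata4 and Hand2, summed to 6.48 FPKM in replicate 1 and 44.9 FPKM in replicate 2 at 96 h, and Osr1 was the higher in replicate 2. At 120 h the sums were 23 and 3.89 FPKM, and Osr1 was the higher in replicate 1. At 72 h the sums also differed, with 13.2 and 3.86 FPKM, while Osr1 was at 0 in both libraries, and at 108 h they were 7.39 and 7.77 FPKM, while Osr1 was the higher in replicate 2. At 132 h the sums were 3.92 and 4.23 FPKM, and at 144 h 14.6 and 21.8. The sums of 9 genes for trophectoderm and surface ectoderm also differed between the libraries, with 28.6 and 59.5 FPKM at 96 h and 49.6 and 16.8 at 120 h. Of the 10 genes of this list that were tested, 5 rose from 84 h to 96 h (Foxf1 by 3.23 and Tbx18 by 3.93), 5 fell to 108 h (Gata4 by 2.83), and 6 rose from 132 h to 144 h (Hand2 by 3.93), on the log2 scale. The median of the list in these steps was 1.80, -1.58 and 2.06, against -0.00633, 0 and 0 over all genes. No marker of the list was at 0 in all libraries of 96 h or 144 h, but some were barely above it. The highest stage means of Upk3b, Nr5a1, Lhx9 and Tbx20 were 0.0206, 0.02495, 0.118 and 0.494 FPKM. The part of lateral plate or trophectoderm cells in the Osr1 level was not tested, and in pooled stembryos fewer cells of a type and less RNA per cell cannot be told apart.

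Lhx1, a LIM homeodomain gene, had the highest level of the 6 genes in FPKM, a scale per transcript length, from 72 h to 108 h. Its 2 libraries at 72 h disagreed, with 50.9 and 6.65 FPKM. At 84 h it was 12.2 and 12.9 FPKM, at 96 h 17.7 and 20.8, at 108 h 7.93 and 7.4, and at 120 h 3.59 and 1.78. At 132 h it was 0.118 and 0.41 FPKM, at 144 h 0.449 and 0.837, and at 168 h 1.89 and 1.87. From 96 h to 132 h every stage lay below the one before it in both libraries, and 168 h lay above 144 h. The change from 108 h to 120 h was -1.56 ± 0.48 (SE, adjusted p = 0.0417) and that from 120 h to 132 h -2.98 ± 0.48 (adjusted p = 0.000325), and the rise to 168 h was 1.46 ± 0.48 (adjusted p = 0.046). Without time course replicate 1 the step to 132 h was -1.88 and the rise to 168 h was not called (1.07, adjusted p = 0.143). That rise was also not called with a pseudocount of 1 (0.82, adjusted p = 0.225) or without the filter (adjusted p = 0.0752), and without replicate 2 the step to 120 h was not called (-1.12, adjusted p = 0.0922).

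The gap at 72 h decided the first step. Lhx1 differed between those libraries by 2.92 on the log2 scale, and of 17098 genes 98 differed by at least as much in this direction, Lhx1 included, and 121 in the other. The change from 72 h to 84 h was not called (-0.56, 95% interval -1.53 to 0.42). It was -2.05 without replicate 2 (adjusted p = 0.000697) and 0.94 without replicate 1 (adjusted p = 0.177). The 11 genes listed for streak, node and endoderm, where Lhx1 is also known, summed to 1266 and 1335 FPKM in the same 2 libraries, and to 28.1 and 29.1 FPKM at 168 h. Most of the sum at 72 h was T and Mixl1, with means of 942.1 and 244.2 FPKM. It does not show whether lower genes of the list, such as Gsc (mean 21.7 FPKM) and Foxa2 (13.7), differed between the 2 libraries. Across the 28 condition means the log2 levels of Lhx1 and of this sum had a Pearson r of 0.851. The points share libraries and library sets, and the r is a description only.

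Lhx1os followed Lhx1 in part. It stood at 2.72 and 0.8 FPKM at 72 h, again higher in replicate 1, at 1.91 and 2.2 at 84 h and at 6.24 and 4.55 at 96 h. At 120 h it was 4.14 and 3.05 FPKM and at 132 h 0.153 and 0.154. Its change from 120 h to 132 h was -3.85 ± 0.43 (SE, adjusted p = 6.04e-07), and its rise from 144 h to 168 h was 1.78 ± 0.43 (adjusted p = 0.00476). It also rose from 84 h to 96 h (1.34 ± 0.43, adjusted p = 0.0229), a step at which Lhx1 was not called (0.61, 95% interval -0.36 to 1.59). Over the 28 condition means the log2 levels of both genes had a Pearson r of 0.81.

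**Figure D2:**
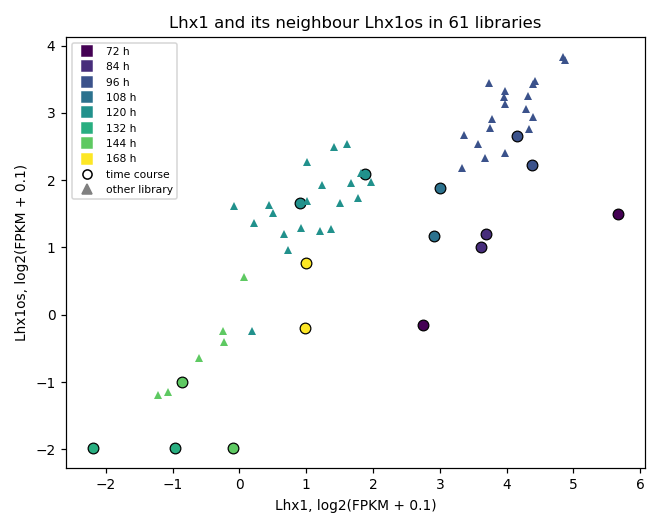
Level of Lhx1os against that of Lhx1, each as log2(FPKM + 0.1), with 1 point a library coloured by stage; circles with black rims are the time course and triangles all other libraries. Libraries of 96 h lie at the top right and those of 132 h and 144 h at the bottom left, and the 72 h and 84 h libraries have less Lhx1os for their Lhx1 than those of 96 h.

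Pax2 is a paired box gene needed for the nephric duct and for the kidney made from it. It stood at 0.016 and 0.0342 FPKM at 72 h and at 0.0649 and 0.0284 at 84 h, so that 3 of these 4 values were at or under the level of 3 fragments. At 96 h it was 1.27 and 1.19 FPKM, at 108 h 0.464 and 0.874, at 120 h 0.32 and 0.413, and at 132 h 0.223 and 0.247. It was 0.389 and 0.272 FPKM at 144 h, and 1.84 and 1.73 at 168 h, its highest stage. The libraries of 96 h and of 168 h lay above all others. The rise from 84 h to 96 h was 3.19 ± 0.38 (SE, adjusted p = 7.09e-08) and that from 144 h to 168 h was 2.14 ± 0.38 (adjusted p = 0.000157). Both calls held in all 8 alternatives run. In the later step spinal cord genes moved as well: of 5 tested, Elavl3 (2.71), Tubb3 (2.58) and Pax6 (1.98) rose and Evx1 (-2.18) fell. The sum of that list of 12 genes went from 42.9 and 37.9 FPKM to 169.9 and 174.7. The part of such cells in the Pax2 and Lhx1 levels at 168 h was not tested. No step between 96 h and 144 h was called.

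Pax8, the close relative that acts with Pax2, did not reach 1 FPKM in any library. Over the 61 libraries its lowest value was 0 FPKM, its median 0.119 and its highest 0.661, and 10 libraries were at or under 3 fragments. In the time course it was 0.0981 and 0.239 FPKM at 72 h, 0.0596 and 0.226 at 84 h, 0 and 0.483 at 96 h, and 0.0871 and 0.112 at 108 h. It was 0.089 and 0.137 FPKM at 120 h, 0.218 and 0.367 at 132 h, 0.238 and 0.305 at 144 h, and 0.28 and 0.528 at 168 h. Each stage overlapped the next in the order of their means, and replicate 2 held the higher value at all 8 stages. The filter left Pax8 untested. Without it, the F-test gave an adjusted p of 0.149, so that a change over time was not detectable at this depth.

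Gata3, a zinc finger gene of the nephric duct, was at most 1.2 FPKM in the time course. It was 0.0953 and 0.0368 FPKM at 72 h and 0 and 0.0819 at 84 h. It was 0.202 and 0.743 FPKM at 96 h, 0.155 and 0.22 at 108 h, 0.433 and 0.644 at 120 h and 0.249 and 0.23 at 132 h. At 144 h it was 0.915 and 1.2 FPKM and at 168 h 1.13 and 0.906, and these 4 libraries were the highest of the time course. The rise from 84 h to 96 h was 1.90 ± 0.38 (SE, adjusted p = 0.000307) and that from 132 h to 144 h 1.76 ± 0.38 (adjusted p = 0.00449). The latter was not called without time course replicate 2 (1.54, adjusted p = 0.125). From 132 h to 144 h 3 of the 6 tested genes listed for trophectoderm and surface ectoderm, where Gata3 is also used, rose too, and the sum of that list went from 17.8 and 21.8 FPKM to 61.5 and 57.1. The part of such cells in the Gata3 level was not tested.

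Wt1, a zinc finger gene, stood at 0.357 and 0.637 FPKM at 72 h, 0.256 and 0.382 at 84 h and 0.0395 and 0.148 at 96 h, its lowest stage. It then was 1.21 and 1.85 FPKM at 108 h, 1.93 and 7.39 at 120 h and 5.36 and 7 at 132 h. At 144 h it was 1.67 and 2.34 FPKM and at 168 h 1.39 and 1.18. Every library from 108 h on lay above every library before. The change from 84 h to 96 h was -1.16 ± 0.39 (SE, adjusted p = 0.0318), followed by 3.10 ± 0.39 to 108 h (adjusted p = 1.3e-06), 1.29 ± 0.39 to 120 h (adjusted p = 0.0394) and -1.58 ± 0.39 from 132 h to 144 h (adjusted p = 0.0121). The libraries of 120 h were far apart, so that the step from 108 h to 120 h was 1.94 without time course replicate 1 and 0.63 without replicate 2 (adjusted p = 0.528). Without replicate 1 the steps to 96 h (-0.96, adjusted p = 0.158) and to 144 h (-1.54, adjusted p = 0.0591) were also not called, and the former was not called with a pseudocount of 1 (-0.27, adjusted p = 0.595).

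By step, the members called and the share called of all genes were as follows. From 72 h to 84 h limma called 0 of 5, where 16.3% of all genes were called. None of the 5 had an unadjusted p under 0.05 in that step, and Lhx1 was called without time course replicate 2. From 84 h to 96 h 4 of 5 were called against 20.7%, with Osr1, Pax2 and Gata3 higher and Wt1 lower. From 96 h to 108 h 2 of 5 were called against 9.45%, and from 108 h to 120 h 2 of 5 against 7.06%. From 120 h to 132 h 1 of 5 was called against 2.46%, from 132 h to 144 h 3 of 5 against 5.42%, and from 144 h to 168 h 2 of 5 against 9.87%. The median change of the 5 members from 84 h to 96 h was 1.90 on the log2 scale, beside -0.00633 over all genes.

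Other genes of the kidney lineage were taken from lists. Among 11 nephric duct and ureteric bud genes, 9 were tested, and from 84 h to 96 h 3 rose and 2 fell. Sim1 rose by 4.77 on the log2 scale, from 0.0528 and 0.0521 FPKM to 3.11 and 5.3. Ret, the receptor that guides the ureteric bud, was highest at 168 h with 5.65 and 4.65 FPKM, and its co-receptor Gfra1 rose by 2.15 from 144 h to 168 h (adjusted p = 7.74e-08), the step at which Pax2 and Lhx1 rose. Of the 9 it was the only one to rise in that step, while Etv4 fell by 1.84 and Etv5 by 1.27. Cdh16 and Wnt9b, genes of duct epithelium, stayed below 1 FPKM in the means of all stages.

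Of 9 genes of metanephric mesenchyme and nephron progenitors, 7 were tested, and 4 rose and none fell from 84 h to 96 h, with a list median of 1.72. Eya1, a gene of the kidney mesenchyme, rose by 2.65 in that step, from 1.014 and 0.557 FPKM to 3.32 and 8.37. Gdnf, the ligand of Ret, and Osr2 stayed below 1 FPKM in the means of all stages. Eya1 is also a gene of the somite, and the 8 paraxial mesoderm genes summed to 453.6 and 544 FPKM at 96 h, where 6 of the 8 rose and Msgn1 fell. The part of paraxial cells in the Eya1 level was not tested. Of 9 genes of nephron and podocyte differentiation, 7 were tested, and 3 rose from 120 h to 132 h, among them Wnt4 (2.19) and Pou3f3 (2.06). Pou3f3 rose again by 2.19 from 144 h to 168 h. Among the spinal cord genes Pax6 rose by 2.385 from 120 h to 132 h, with no other gene of that list called. In the later step Elavl3, Tubb3 and Pax6 rose and Evx1 fell, as given for Pax2. The part of spinal cord cells in the Wnt4 and Pou3f3 levels was not tested. Hnf4a and Umod, genes of the formed tubule, stayed at or under 0.128 FPKM in the means of all stages.

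Across the 28 condition means the log2 levels of Osr1 and Pax2 had a Pearson r of 0.613, and those of Lhx1 and Wt1 an r of -0.759, the lowest of the 15 pairs. Over the 8 stages of the time course these were 0.793 and -0.82. For each member the 2 annotated genes most like it over the 28 conditions were looked up among the genes tested. They were Fut4 (0.832) and Plekha6 (0.826) for Osr1, Cnr1 (0.812) and Rtn1 (0.806) for Pax2, Rel (0.925) and Fam163b (0.917) for Lhx1, Lrrc32 (0.932) and Ephb3 (0.929) for Wt1, Angpt1 (0.874) and Icam2 (0.836) for Gata3, and Pttg1 (0.798) and Tbrg1 (0.793) for Pax8. These are descriptions over conditions that share library sets, and none of these genes belongs to the lists.

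Wild-type libraries of the same stage were not alike, which bears on every comparison with them. At 96 h the libraries outside the time course held 0.198, 0.147, 0.0359 and 0.09 FPKM of Gata3, where the time course had 0.202 and 0.743, a difference of -1.27 ± 0.33 (SE, adjusted p = 0.00382) that was -2.01 without time course replicate 1 and -0.53 without replicate 2 (adjusted p = 0.376). Pax2 was 0.785, 0.935, 0.624 and 0.228 FPKM outside and 1.27 and 1.19 inside, a difference of -0.96 ± 0.33 (adjusted p = 0.0241). It was not called without wild-type replicate 4 (-0.61, adjusted p = 0.0981), nor without time course replicate 1 (-0.92, adjusted p = 0.137) or 2 (adjusted p = 0.133). At 144 h Wt1 was 0.824 and 0.658 FPKM outside and 1.67 and 2.34 inside, a difference of -1.31 ± 0.39 (adjusted p = 0.0141), not called without wild-type replicate 2 (-1.17, adjusted p = 0.12) or time course replicate 2 (-1.08, adjusted p = 0.0514). Of the members, 2 of 5 were called at 96 h, 0 at 120 h and 1 at 144 h, where 32.3%, 30.1% and 21.5% of all genes were. At 120 h limma gave no member an unadjusted p under 0.05, but without time course replicate 2 Osr1 (-1.75, adjusted p = 0.0301), Wt1 (1.31, adjusted p = 0.00964) and Lhx1 (-1.12, adjusted p = 0.0155) were called, and without replicate 1 Osr1 and Wt1 had the opposite sign (0.34 and -0.57). An age was also estimated for each library from 1000 other genes by its best match along the time course. It was 157 h for both 144 h controls, between 92 h and 101 h for the 96 h controls, and 125 h or 126 h for those of 120 h.

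The mutants were made to ask how CTCF sites and flanking regions of HoxD set the timing of Hoxd genes, and here the question was whether the intermediate mesoderm genes changed with them. In 85 tests of 5 members in 17 conditions 9 were called, which is 10.6%, where 12.1% of such tests were called over all genes. Wt1 took 5 of the 9 calls, Pax2 2, Osr1 and Gata3 1 each, and Lhx1 none. Del(CBS1), Del(CBS1-2), Del(d1-d4) and Ins(2xCBS-d4d8) had no member called at 96 h or 120 h, nor had Del(CBS2) at 120 h. The shares of all genes called at 96 h and 120 h were 1.23% and 2.1% in Del(CBS1), 4.49% and 2.35% in Del(CBS1-2), 1.19% and 1.85% in Del(d1-d4) and 27.9% and 26.9% in Ins(2xCBS-d4d8). The share was 0.193% in Del(CBS2) at 120 h. Pax2 at 96 h in Del(CBS1-2), with 1.24 and 1.163 FPKM above all 4 controls, was called without wild-type replicate 2 (1.13, adjusted p = 0.0306), and Wt1 at 120 h in Ins(2xCBS-d4d8), with 8.55 and 7.74 FPKM, with a pseudocount of 1 (0.61, adjusted p = 0.0335). At an unadjusted p under 0.05, 19 of the 85 tests passed. The share of all genes at that threshold is not given here, and it is at least the 12.1% called after adjustment.

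**Figure D3:**
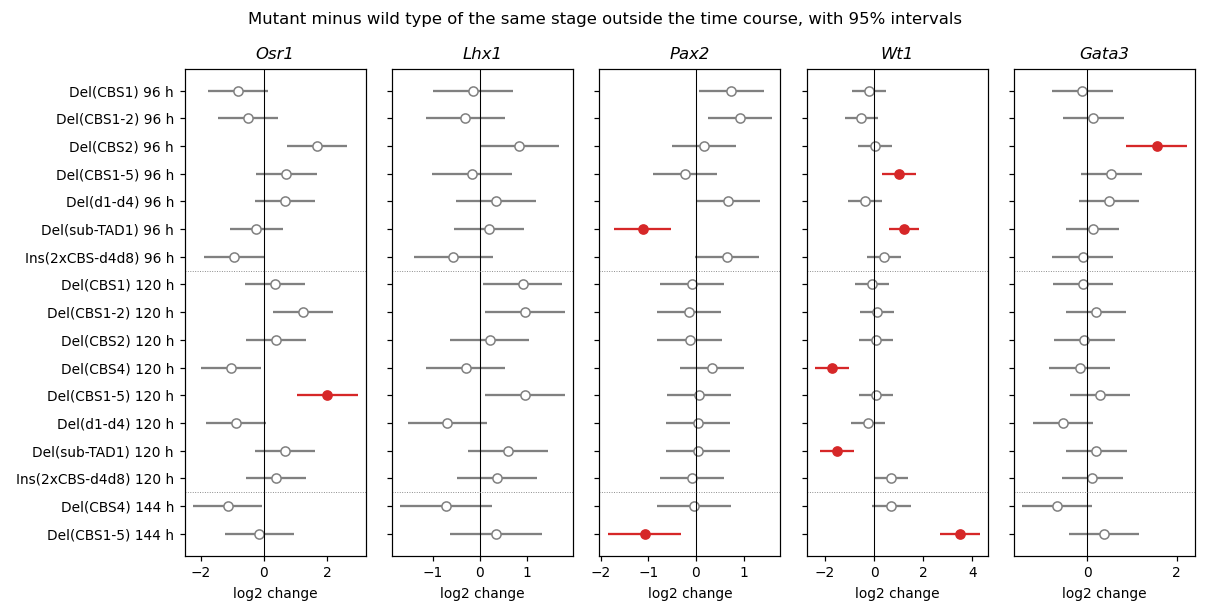
Change of each member (1 panel a gene) in each mutant condition (rows, by stage) against wild type of the stage outside the time course, on the log2(FPKM + 0.1) scale. Points are limma estimates, bars their 95% intervals, and red marks an adjusted p under 0.05. Wt1 has 5 red marks, the farthest being Del(CBS1-5) at 144 h (3.50), and Lhx1 has none.

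Wt1 in Del(CBS1-5) at 144 h was the farthest change of any member in any mutant. It was 8.36 and 10.41 FPKM, against 0.824 and 0.658 in the controls and 1.67 and 2.34 in the time course at 144 h, so that both mutant libraries lay above all 4 wild-type libraries of the stage and also above both at 132 h. The change was 3.50 ± 0.39 (SE, adjusted p = 1.79e-08) and 2.84 against wild type of the same library set with the time course included, and it held in all 14 alternatives. The estimated age of the mutant libraries was 137 h and 138 h, where the controls were at 157 h. Of all genes 23.7% were called in this condition. At 120 h Wt1 was 5.15 and 5.42 FPKM in Del(CBS1-5), within the controls' 3.63 to 6.35, and was not called (0.09, 95% interval -0.60 to 0.78). At 96 h it was 0.362 and 0.241 FPKM against 0.0886, 0.0548, 0.193 and 0.0821 in the controls, a change of 1.00 ± 0.34 (adjusted p = 0.043). This call was lost with controls of the same library set (0.96, adjusted p = 0.118), and without wild-type replicates 1, 2 or 4 (between 0.88 and 0.97, adjusted p between 0.0607 and 0.119). It was also lost without mutant replicate 1 (0.78, adjusted p = 0.641) or 2 (1.22, adjusted p = 0.393) and with a pseudocount of 1 (0.24, adjusted p = 0.5002). The estimated age of both libraries was 90 h, which lies between the time-course stages of 84 h (0.256 and 0.382 FPKM) and 96 h (0.0395 and 0.148). Of all genes 14.8% were called at 96 h and 13.3% at 120 h.

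Osr1 in Del(CBS1-5) at 120 h was 1.14 and 0.753 FPKM, above all 4 controls (0.0995, 0.197, 0.317 and 0.0735), a change of 2.01 ± 0.47 (SE, adjusted p = 0.00394). The call held in 11 of 14 alternatives, and was lost without mutant replicate 1 (1.74, adjusted p = 0.28) or 2 (2.28, adjusted p = 0.139) and with only the compared groups (adjusted p = 0.215). Replicate 1 of the time course at 120 h, at 0.762 FPKM, lay within the mutant's range. The mutant's lateral plate sums were 7.84 and 6.92 FPKM, where the controls lay between 3.93 and 6.62. Of 11 genes for streak, node and endoderm 5 were higher in this condition, among them Eomes (2.28) and Otx2 (2.003), as were Krt8 (1.89) and Tfap2c of the 6 for trophectoderm and surface ectoderm, and none was lower. The part of these cells in the Osr1 change was not tested. Pax2 at 144 h was 0.172 and 0.0664 FPKM against 0.528 and 0.222, a change of -1.08 ± 0.38 (adjusted p = 0.0365). The call held in 9 of 14 alternatives. It was lost without wild-type replicate 1 (-0.60, adjusted p = 0.468), without mutant replicate 1 (-1.43, adjusted p = 0.0871) or 2 (-0.73, adjusted p = 0.506), with a pseudocount of 1 (-0.29, adjusted p = 0.116) and with only the compared groups (adjusted p = 0.275). Gata3 at 144 h was 0.726 and 1.23 FPKM against 0.902 and 0.548, and Lhx1 0.745 and 0.951 against 0.748 and 0.555, with groups that overlapped and no call. Pax8 had its 2 highest values of the series apart from the time course here, 0.661 and 0.508 FPKM against 0.205 and 0.15. Without the filter this was a change of 1.30 (adjusted p = 0.0418), the only call of Pax8 in any comparison.

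At 144 h 5 of the 9 tested nephric duct genes were higher and 2 lower in Del(CBS1-5). Etv5, a target of FGF and Ret signalling, stood at 35.2 ± 1.99 FPKM (SD, n = 2) against 9.21 ± 0.842 (SD, n = 2). Etv4, Etv5 and Spry1, all among the higher ones, were themselves lower in these controls than in the time course at 144 h. Those differences were -2.156, -1.475 and -0.917 on the log2 scale, and no other duct gene was called between the 2 wild-type series. Of 7 genes of metanephric mesenchyme 2 were higher and 1 lower, the latter being Sall1 at 21.5 ± 1.19 FPKM against 53.5 ± 1.49. Of 7 genes of nephron and podocyte differentiation 2 were higher, Nphs1 (4.30) and Synpo (0.97), and 2 lower, Pou3f3 (-2.83) and Wnt4 (-1.24). Nphs1, which encodes nephrin of the podocyte slit, stood at 2.49 ± 0.17 FPKM against 0.0316 ± 0.000302 at 144 h, and was also called at 96 h (1.59 ± 0.0466 against 0.274 ± 0.371) and at 120 h (1.55 ± 0.27 against 0.291 ± 0.39, n = 2 and 4). At 96 h and 120 h the SD of the controls was above their mean, so these controls disagreed. The stage means of the time course were at most 0.816 FPKM. Nphs1 thus passed the filter only through mutant conditions, these among them, and its calls are not independent of that filter. Of 10 lateral plate genes Foxf1 (-2.21, adjusted p = 0.00012) and Tcf21 (-2.28) were lower and Prrx1 (2.51, adjusted p = 0.00292) was higher. The sums of this list were 13.3 and 15.8 FPKM against 15.9 and 14.3 in the controls. Genes of other cell types moved too at 144 h. Of 5 spinal cord genes 3 were lower, of 11 for streak, node and endoderm 3 were higher and 1 lower, with Otx2 higher by 5.45, and of 6 for trophectoderm and surface ectoderm 2 were higher and 1 lower. The paraxial sums were 337.9 and 346.5 FPKM against 174.4 and 180.2 in the controls and 273.7 and 273.8 in the time course. Some of these genes also differed between the controls and the time course at 144 h, among them Otx2 (-2.93) and Pou3f3 (1.28). The part of age, of the controls and of cell types in the changes of Wt1 and of the list genes was not tested.

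Del(CBS4) at 120 h had less Wt1, at 2.1 and 0.968 FPKM against 6.35, 6.21, 4.17 and 3.63 in the controls. The groups did not overlap, but replicate 1 of the time course at 120 h, at 1.93 FPKM, lay between the mutant libraries. The change was -1.72 ± 0.34 (SE, adjusted p = 0.000283), and -1.33 against wild type of the same library set (adjusted p = 0.0232). Without mutant replicate 2 it was -1.20 (adjusted p = 0.235), and 37.5% of all genes were called in this condition. The estimated ages of its 2 libraries were 114 h and 128 h, a wide gap, and the lower Wt1 belonged to the older library. Of the 6 tested genes listed for trophectoderm and surface ectoderm 5 were lower, as were 5 of 11 for streak, node and endoderm, while Wnt4 (2.39) and Pou3f3 (2.87) were higher and Osr1 was at 0 and 0.0526 FPKM without a call. Osr1 was called without wild-type replicate 4 (-1.24, adjusted p = 0.039). The paraxial sums were between 251.3 and 362.5 FPKM, against 461.3 to 567.1 in the controls. The part of age and of these cells in the Wt1 change was not tested. At 144 h Del(CBS4) had no member called, where 2.05% of all genes were.

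Del(sub-TAD1) had more Wt1 at 96 h and less at 120 h. At 96 h it was 0.433, 0.269 and 0.42 FPKM, above all 4 controls, a change of 1.24 ± 0.30 (SE, adjusted p = 0.00153). At 120 h it was 1.53 and 1.83 FPKM, below all 4 controls and just below the lowest wild-type library of the time course (1.93), a change of -1.51 ± 0.34 (adjusted p = 0.00435). Both held with controls of the same library set (1.34 and -1.66). The call at 96 h held in 10 of 14 alternatives, with changes between 0.314 and 1.42. Among the fits that lost it were those without mutant replicate 1 (1.14, adjusted p = 0.0716) or 2 (1.41, adjusted p = 0.056). The call at 120 h held in 11 of 14 and was lost without either mutant library (-1.39 and -1.64). Of all genes 40% were called at 96 h and 6.15% at 120 h. The estimated ages were 91 h or 92 h at 96 h, and 127 h and 126 h at 120 h, where the controls were at 125 h or 126 h. At 120 h 4 of the 11 genes for streak, node and endoderm were higher, with Noto by 4.15 and Foxa2 by 3.07, and so were Krt8 (2.52), Krt18 (2.45) and Krt7 (2.08) of the 6 for trophectoderm and surface ectoderm. None of either list was lower. The part of such cells in the Wt1 change at 120 h was not tested.

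Pax2 in Del(sub-TAD1) at 96 h was 0.266, 0.204 and 0.179 FPKM, against 0.785, 0.935, 0.624 and 0.228 in the controls. The change was -1.12 ± 0.29 (SE, adjusted p = 0.00278), and -1.41 against wild type of the library set with the time course included. The control that overlapped the mutant was replicate 4, the only one of the mutant's library set outside the time course. The other controls of that set were both time-course libraries of 96 h (1.27 and 1.19 FPKM). These held more Pax2 than every control outside the time course, and the part of that gap in the -1.41 was not tested. Without mutant replicate 2 the call was lost (-1.09, adjusted p = 0.0733). Of the 11 genes for streak, node and endoderm 9 were higher and 1 lower at 96 h, with Noto, a gene of the node and notochord, at 15.4 ± 3.81 FPKM (SD, n = 3) against 0.696 ± 0.394 (SD, n = 4). The sums of the list were 299.6, 225.9 and 213.9 FPKM against 148 to 181.5 in the controls. Lhx1, itself a node gene, was 15.6, 21 and 19.4 FPKM, within the controls' 10.2 to 21.3, and was not called (0.20, 95% interval -0.55 to 0.95). The part of such cells in the changes of Pax2 and Wt1 was not tested.

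Gata3 was called only in Del(CBS2) at 96 h, with 0.596 and 0.438 FPKM against 0.198, 0.147, 0.0359 and 0.09 in the controls. The change was 1.55 ± 0.33 (SE, adjusted p = 0.0206), in a condition with 0.298% of all genes called. It was lost with controls of the same library set (1.51, adjusted p = 0.0966), without wild-type replicate 3 (1.34, adjusted p = 0.0855), with a pseudocount of 1 (0.44, adjusted p = 0.0656), with a replicate block (1.54, adjusted p = 0.0517) and with either mutant library alone. Replicate 2 of the time course at 96 h, at 0.743 FPKM, was higher than both. Osr1 was at its highest of the series here, 4.47 and 3.62 FPKM against 0.869 to 1.66 in the controls, without a call (1.68, adjusted p = 0.096), although it was called with a pseudocount of 1 (1.19, adjusted p = 0.00457) and without wild-type replicate 1 (1.83, adjusted p = 0.0422). Lhx1 was 29.1 and 28.7 FPKM, above all 4 controls, also without a call (0.84, 95% interval -0.01 to 1.69). The lateral plate list summed to 18 and 16.3 FPKM in this condition against 4.61 to 8.7 in the controls, with none of its 10 tested genes called by limma. The estimated ages were 100 h and 99 h. The part of lateral plate cells in the Gata3 and Osr1 values was not tested.

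Lhx1 was called in none of the 17 conditions. Its changes lay between -0.72 in Del(CBS4) at 144 h and 0.96 in Del(CBS1-2) and Del(CBS1-5) at 120 h, and the 95% intervals ran from -1.69 to 1.81, which sets the sizes of change that these libraries leave possible. Without wild-type replicate 3 it was called in Del(CBS1-5) at 120 h (1.18, adjusted p = 0.0429), where it was 3.45 and 2.97 FPKM against 1.32, 1.26, 2.56 and 1.49. Lhx1os was lower in Del(CBS4) at 120 h (1.84 and 0.749 FPKM against 2.76, 2.99, 5.53 and 2.2 in the controls, -1.35 ± 0.37 (SE), adjusted p = 0.00481), where Lhx1 stood at 1.55 and 1.04 against 1.32, 1.26, 2.56 and 1.49 FPKM.

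**Figure D4:**
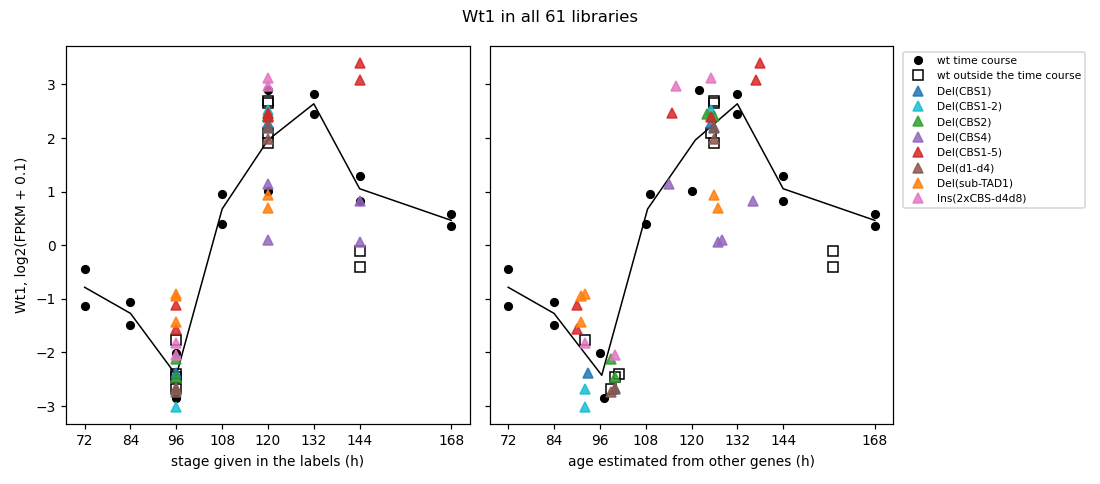
Wt1 in all 61 libraries, as log2(FPKM + 0.1), against the labelled stage (left) and against the age estimated from 1000 other genes (right), in hours. The line joins the stage means of the time course. Both Del(CBS1-5) libraries labelled 144 h lie above every wild-type library in both panels, at estimated ages of 137 h and 138 h, and Del(sub-TAD1) and Del(CBS4) libraries labelled 120 h lie under the line.

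A further question was whether a mutant's change depended on the stage, which the difference between its log2 changes at 2 stages addresses. Of 45 such tests on the members 3 were called, all of Wt1, where 4.43% of such tests were called over all genes. In Del(CBS1-5) the change at 144 h was above that at 120 h by 3.40 ± 0.52 (SE, adjusted p = 3.49e-05, 7.07% of genes called). In Del(CBS4) it was 2.42 ± 0.52 (adjusted p = 0.00258, 8.27%), and 1.37 with controls of the same library set (adjusted p = 0.21). In Del(sub-TAD1) the change at 120 h was below that at 96 h, with a difference of -2.75 ± 0.45 (adjusted p = 0.000231, 23.6%). Del(sub-TAD1) lay in the second library set at 96 h and in the first at 120 h. Del(CBS1-5) lay in the first at 120 h and in the second at 144 h. In both mutants the library set thus changed together with the stage. In the other 6 differences no member was called, with shares of all genes called of 0.257% in Del(CBS1-5), 0.0117% in Del(CBS2), 0.0234% in Del(d1-d4), 0.0526% in Del(CBS1), 0.175% in Del(CBS1-2) and 0.392% in Ins(2xCBS-d4d8), each 120 h minus 96 h. Over all 45 tests 12 had an unadjusted p under 0.05. For all genes the share at that threshold is not given here, and it is at least the 4.43% called after adjustment. All 3 calls were lost when either mutant replicate was left out, with values between 3.28 and 3.52, 2.28 and 2.55, and -3.04 and -2.53. Pax2 in Del(sub-TAD1), with a difference of 1.152 (adjusted p = 0.0549), was called without wild-type replicate 4 (1.57, adjusted p = 0.00247). Osr1 in Del(CBS1-5), with a difference of -2.15 between 144 h and 120 h (adjusted p = 0.0604), was called with controls of the same library set (-2.46, adjusted p = 0.0342) and without wild-type replicate 3 (-2.39, adjusted p = 0.033).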

How the data were processed

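Stembryos of wild-type and mutant mouse embryonic stem cells were profiled by stranded poly-A RNA-seq in 61 libraries, grouped by genotype, stage and series from the sample titles. The authors trimmed reads of 75 bases with cutadapt 1.16, aligned them to mm10 with STAR 2.7.7a, kept unique hits and ran Cufflinks 2.2.1 on an annotation from Ensembl release 102. Each deposited table gives a gene's FPKM, which the authors scaled to mapped fragments and transcript length. The 25 gene identifiers on several lines were summed, and none of the failed estimates of 14 genes concerned the members.

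Depth is not part of the tables and was inferred from the steps that 1 fragment makes in FPKM at low levels (15020000 to 38830000 fragments, within a tolerance of 0.03 of a whole fragment). The level of 3 fragments was computed for the longest coding transcript, covers counting error only, and is approximate for genes with several transcripts. Log2(FPKM + 0.1) of all libraries was fitted by limma (version 3.58.1, R 4.3.3) with a coefficient a condition (28 in all). A gene was tested if its mean reached 1 FPKM in any condition, which 17098 did. Tests were moderated and two-sided, with Benjamini-Hochberg adjustment over all genes of a comparison and a threshold of 0.05. There were 7 steps of the time course with an overall F-test, 17 mutant comparisons, 9 differences between stages and 3 comparisons of wild type. On simulated data for the step from 96 h to 108 h (17098 genes), 48% of changes of 1 and 66% of changes of 2 on the log2 scale were recovered, and 5.79% of calls were false. For Del(CBS2) at 96 h these were 53%, 70% and 3.15%. These shares hold for the simulated data only. In the 3 comparisons of wild type, real libraries of equal stage and genotype had between 21.5% and 32.3% of all genes called. The simulated false shares therefore do not measure how often a difference between series is called in the real libraries.

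Alternatives were a pseudocount of 1, no filter (39464 genes), median-ratio scaling, a replicate block, moderation with trend and robust options, a fit of only the compared groups, controls of the same library set, each replicate left out, and other onset thresholds. Gene positions came from the tables and equal those of GENCODE vM21, and promoter sequences are RefSeq's for GRCm38.p6, with no entry for Osr1 and Wt1.

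The text names the 6 members, list genes that were called where a member was or that reached 1 FPKM in the time course, list genes below 1 FPKM only as such, and the 2 genes most like each member. The list genes below 1 FPKM were singled out after their values were seen. Some list genes are counted but not reported here by name. The members, lists and motifs were chosen with earlier results of these data known.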

Additional observations from a re-analysis of the deposited data

Results flagged for a closer look

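The following 3 Wt1 differences between stages were past the threshold of the test of the difference itself. In Del(CBS1-5) the change against wild type was larger at 144 h than at 120 h by 3.40 on the log2 scale, and in Del(CBS4) by 2.42. In Del(sub-TAD1) the difference of 120 h from 96 h was -2.75. For the first 2 the controls of 144 h, at an estimated age of 157 h and with less Wt1 than the time course at 144 h, entered the difference, and their part in it was not tested. Dixon's test flagged no member's library as far from the other 3 among the controls of 96 h or of 120 h. With so few libraries it finds only extreme gaps, so it does not show that no library was far. Lhx1 at 120 h was not flagged, with 2.56 FPKM in wild-type replicate 3 against 1.32, 1.26 and 1.49.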

How the results depend on the processing

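Counts of calls on the members were 14 in the time-course steps, 9 in the mutant comparisons, 3 between stages and 3 between wild-type series. When only the compared groups were fitted, which leaves few residual degrees of freedom, they were 5, 1, 2 and 0. With either mutant replicate left out (the lone library is then assumed to vary like the other groups) the 9 mutant calls ranged from 1 to 9 and the 3 between stages from 0 to 3, over mutant replicates 1, 2 and 3. Without each wild-type replicate the mutant calls were 8 to 9 and the differences between stages 3 to 4. Without each time course replicate the steps called were 11 to 12. All 5 members tested stayed past the F-test in every alternative. The onset of Wt1 was 132 h with a threshold of 2 FPKM, and Gata3 then had none. The onset of Gata3, which had none at 1 FPKM, was 144 h at 0.5 FPKM, 168 h in replicate 1 alone and 144 h in replicate 2 alone. At 2 FPKM Osr1 and Pax2 had no onset.

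No called value changed sign in any alternative. Of the reported values that missed the threshold, 4 changed sign without time course replicate 1, where 1 library a stage remained. The range without either replicate was -2.05 to 0.94 for Lhx1 from 72 h to 84 h and -0.077 to 1.43 for Wt1 from 120 h to 132 h. Outside against inside the time course at 120 h it was -1.75 to 0.34 for Osr1 and -0.57 to 1.31 for Wt1. With controls of the same library set 3 calls were lost, given beside the results. The labels share replicate numbers, but a replicate block is no pairing here: over 56 same-numbered pairs of the time course the correlation of deviations was between -0.0893 and 0.132, and over 384 outside it between -0.214 and 0.889 with a median of -0.000792. With the block, steps called were 15 and mutant calls 8, with 3 between stages and 3 between wild-type series. Depth limits Pax8 most, and Osr1, Pax2 and Gata3 before 96 h, where values are at or near 3 fragments. The factors of median-ratio scaling lay between 0.873 and 1.1 over the libraries.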

Other observations

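Wt1os, a noncoding gene whose start lies 19 bp from that of Wt1 on the opposite strand without overlap, was low but followed Wt1, with a Pearson r of 0.90 between their log2 levels over the 28 condition means, which share library sets. It was listed at 0 in all 4 wild-type controls at 96 h and stood at 0.632 ± 0.188 FPKM (SD, n = 4) in those at 120 h. In Del(CBS1-5) at 144 h, where Wt1 was highest, it was 0.652 ± 0.13 FPKM (SD, n = 2), and in Del(sub-TAD1) at 120 h 0.19 ± 0.0771 (SD, n = 2). Its mean stayed below 1 FPKM in every condition, so it was not tested. The shared course had exceptions. In wild type at 144 h outside the time course Wt1os was 0.409 ± 0.499 FPKM (SD, n = 2), where the 2 libraries disagreed and Wt1 was low. In the time course Wt1os was at 0 in both libraries of 168 h, where Wt1 was 1.39 and 1.18 FPKM. It was also at 0 in both of 72 h, where Wt1 was 0.357 and 0.637 FPKM.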
